A study of Mus musculus with 18 samples.

Results

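The expression of 9 genes of glutamine and leucine transport and glutamine metabolism was followed in mouse macrophages loaded with modified low-density lipoprotein (LDL). They are the transporter genes Slc1a5, Slc38a1, Slc38a2, Slc7a5 and Slc7a8 and the enzyme genes Glul, Glud1, Got1 and Got2, chosen by symbol among 31053 genes listed, and all 9 passed the filter on low counts. In no comparison of medium or genotype did any of the 9 pass the test across all genes in the main fits. These treated the libraries as independent, except for genotype over all media, where the 3 libraries of a mouse were summed. With oxidized LDL (OxLDL), Slc7a5 passed when low counts were not filtered, and Slc7a5 or Slc7a8 passed without certain single libraries. When the 3 libraries of a mouse were treated as a block, Slc7a5, Glul and Slc7a8 fell with OxLDL, and Glul fell with acetylated LDL (AcLDL). Each call made with the block was lost in at least 3 of the 6 fits that left out a mouse. No difference between Slc7a7-/- and Slc7a7+/+ cells passed the test for any of the 9 genes.

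Glutamine enters cells through several families of carriers. The product of Slc1a5 (ASCT2) exchanges small neutral amino acids including glutamine in a sodium-dependent way, and those of Slc38a1 and Slc38a2 (SNAT1 and SNAT2) bring glutamine and other small neutral amino acids in together with sodium. The products of Slc7a5 and Slc7a8 (LAT1 and LAT2) are light chains that join the heavy chain encoded by Slc3a2 at the plasma membrane and exchange large neutral amino acids such as leucine for others, glutamine among them. Inside the cell, glutaminase turns glutamine into glutamate and glutamine synthetase, encoded by Glul, makes glutamine from glutamate and ammonia. Glutamate dehydrogenase (Glud1) turns glutamate into 2-oxoglutarate in mitochondria, and the aspartate aminotransferases of the cytosol (Got1) and of mitochondria (Got2) move its amino group to oxaloacetate as parts of the malate-aspartate shuttle. In macrophages, glutamine feeds the citric acid cycle and is known to shape activation. Slc7a7, the gene deleted here, encodes y+LAT1, another light chain of Slc3a2, which releases cationic amino acids in exchange for neutral ones and sodium.

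The cells were bone marrow-derived macrophages of 12-week-old mice in the C57Bl/6J background, 3 of each genotype, grown for 7 days in medium with macrophage colony-stimulating factor or L-cell conditioned medium. In Slc7a7-/- mice the deletion is driven by LysM-Cre, which acts in myeloid cells and is inserted in the lysozyme gene Lyz2, and Slc7a7+/+ mice were the controls. The RNA-Seq wells received 100000 cells each, and vehicle (control medium), AcLDL at 50 μg/mL or OxLDL at 100 μg/mL was given during 24 h, which made 6 groups of 3 libraries. AcLDL and OxLDL therefore differed in dose as well as in modification. An identifier in the labels recurs in the 3 media, and it was read as the mouse, so that mouse 1, 2 and 3 of a genotype each gave 3 libraries.

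Libraries held between 1043492 and 1768816 counts. Slc7a7 gave in Slc7a7+/+ libraries in control medium 11.1, 12.6 and 21.1 CPM, with AcLDL 28.5, 23.6 and 23.8 CPM and with OxLDL 28.7, 25.9 and 29.3 CPM (CPM, the count relative to a TMM-scaled library total), and in Slc7a7-/- libraries in control medium 10.2, 4.33 and 5.16 CPM, with AcLDL 2.36, 2.22 and 5.22 CPM and with OxLDL 10.1, 10.9 and 8.67 CPM. Every Slc7a7-/- library thus lay below every Slc7a7+/+ library of the same medium, with transcripts still detected in all of them. The 8 macrophage markers were all detected, with a summed level of 12600 to 35900 CPM, whereas the summed markers of dendritic cells reached at most 5.20 CPM, of stromal and endothelial cells 11.7 CPM, of lymphoid cells 0.842 CPM and of erythroid cells 1.86 CPM. Of the lymphoid markers, Cd79a, Nkg7 and Ms4a1 were at 0 in all libraries. The 7 neutrophil markers, 6 of which passed the filter on low counts, summed to between 25.5 and 252 CPM.

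The genes are given here by their position in the GENCODE M21 annotation of GRCm38, the same assembly as the mm10 build the authors aligned to. Slc1a5 (ENSMUSG00000001918) lies at chr7:16781340-16798274 on the plus strand, Slc38a1 (ENSMUSG00000023169) at chr15:96571418-96642913 on the minus strand and Slc38a2 (ENSMUSG00000022462) at chr15:96687392-96699730 on the minus strand. Slc7a5 (ENSMUSG00000040010) lies at chr8:121881150-121907694 on the minus strand and Slc7a8 (ENSMUSG00000022180) at chr14:54722209-54781946 on the minus strand. Among the enzymes, Glul (ENSMUSG00000026473) lies at chr1:153899944-153909723 on the plus strand, Glud1 (ENSMUSG00000021794) at chr14:34310727-34345265 on the plus strand, Got1 (ENSMUSG00000025190) at chr19:43499752-43524605 on the minus strand and Got2 (ENSMUSG00000031672) at chr8:95864134-95888547 on the minus strand. Slc38a1 and Slc38a2 lie close together on chromosome 15, on the same strand. All 9 are protein-coding and have exons, introns and several annotated transcripts. Of the 31-base words of their transcripts, 20.3% of those of Got2, 19.7% of Glul, 10.4% of Glud1 and 6.59% of Slc38a1 also occur in transcripts of another gene, mostly Got2-ps1, Glns-ps1, Glud-ps and 4632432E15Rik, so that the counts of these 4 genes could have been shared with them. For the other 5 genes this share is between 0 and 0.322%. Glul overlaps Mir8114 on the same strand. Slc7a5 overlaps Gm20388, Glul overlaps Teddm2 and Got2 overlaps Gm45760 on the opposite strand. The libraries were stranded, but the strand setting of the counting is not given in the sources used here, so reads of the pairs on opposite strands might not be told apart.

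The promoters of Glul and Slc7a8 are shown because these genes fell with OxLDL in the fit with mouse as a block, and that of Got1 because it was the only promoter of the 6 found that held the ATF4 letters given below. Of the 9 genes, Slc38a2, Slc7a8, Glul, Glud1, Got1 and Got2 matched by symbol, and Slc1a5, Slc38a1 and Slc7a5 are named only. The sequences are from RefSeq on GRCm38.p6 and cover the 250 bases before the transcription start, 5′ to 3′ on the strand of the gene, in lower case with CCAAT (or ATTGG, its reverse complement) in capitals.
Glul, chr1:153899679-153899928, plus strand: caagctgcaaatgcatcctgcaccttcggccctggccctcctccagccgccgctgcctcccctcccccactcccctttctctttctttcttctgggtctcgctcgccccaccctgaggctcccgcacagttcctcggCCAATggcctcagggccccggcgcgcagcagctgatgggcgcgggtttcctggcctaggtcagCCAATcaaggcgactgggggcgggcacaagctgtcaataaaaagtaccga
Slc7a8, chr14:54781887-54782136, minus strand: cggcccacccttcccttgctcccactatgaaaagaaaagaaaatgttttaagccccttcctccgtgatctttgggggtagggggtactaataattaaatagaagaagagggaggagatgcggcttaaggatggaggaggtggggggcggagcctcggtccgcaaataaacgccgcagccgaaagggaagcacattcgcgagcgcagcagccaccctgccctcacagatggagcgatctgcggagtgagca
Got1, chr19:43524606-43524855, minus strand: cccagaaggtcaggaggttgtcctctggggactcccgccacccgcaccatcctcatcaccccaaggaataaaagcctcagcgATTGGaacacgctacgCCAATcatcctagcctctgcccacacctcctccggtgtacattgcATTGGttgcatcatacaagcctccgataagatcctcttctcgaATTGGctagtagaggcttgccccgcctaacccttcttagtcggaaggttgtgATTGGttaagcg
Searched on both strands of the same 250 bases, CCAAT was found at 2 places in the promoter of Glul, beginning 113 and 50 bases before the start, and at 5 places in that of Got1. It was found nowhere in the promoter of Slc7a8, nor in those of Slc38a2, Glud1 and Got2, and 33.8% of 32851 RefSeq promoters hold it. TGATGNAA, the core of the element bound by ATF4, the transcription factor of the amino acid response, was found once, in the promoter of Got1, beginning 102 bases before the start, directly after an ATTGG match. It is held by 3.45% of all promoters. The E-box CACGTG (6.02% of all promoters) and the AP-1 motif TGANTCA (6.75%) were found in none of the 6. These matches describe letters in this window only.

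To compare levels between genes, CPM were divided by the summed length of a gene's exons in kb. Glud1 was highest at 113 ± 11.2 CPM per kb (SD over 18 libraries), and its lowest library lay above the highest library of any other of the 9 genes. Glul at 50.1 ± 8.95 and Slc7a8 at 48.8 ± 7.38 CPM per kb came next with overlapping ranges, and the lowest library of both lay above the highest of Slc38a2. Slc38a2 was at 23.9 ± 3.09, Got2 at 17.7 ± 2.30, Got1 at 10.6 ± 2.09 and Slc38a1 at 6.93 ± 0.704 CPM per kb. Slc1a5 at 5.24 ± 1.11 and Slc7a5 at 2.11 ± 1.06 CPM per kb were lowest. From Slc38a2 downward, the ranges of neighbours in this order overlapped. With the mean length of a gene's transcripts instead, the first 3 and the last 2 kept their places, while Got2 moved above Slc38a2 and Slc38a1 above Got1. Of the leucine transporters, Slc7a8 was therefore the abundant one and Slc7a5 the scarce one by either length.

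**Figure D1:**
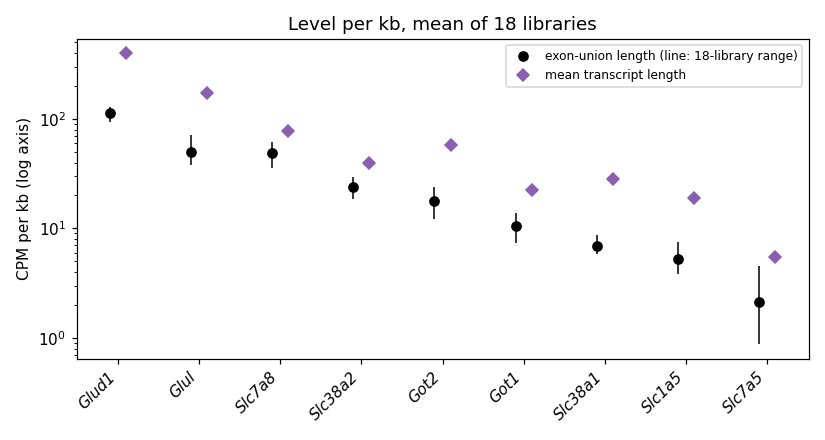
Level of each gene in CPM per kb (log axis), as the mean of 18 libraries, with black circles for the summed exon length, lines for the range over libraries and purple diamonds for the mean transcript length. Glud1 stands at the top with 113 CPM per kb and Slc7a5 at the bottom with 2.11 CPM per kb by exon length.

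Among the sodium-dependent glutamine carriers, Slc1a5 gave in Slc7a7+/+ cells of mouse 1, 2 and 3 in control medium 17.6, 25.1 and 16.8 CPM, with AcLDL 16.1, 20.7 and 27.2 CPM and with OxLDL 27.8, 19.8 and 20.2 CPM. In Slc7a7-/- cells it gave in control medium 19.9, 22.3 and 27.7 CPM, with AcLDL 16.6, 26.1 and 31.3 CPM and with OxLDL 21.9, 17.1 and 19.1 CPM. The groups compared overlapped, with 17 to 54 counts a library, and mice of one group differed as much as groups did. Slc38a1 gave in Slc7a7+/+ cells in control medium 149.5, 138 and 104 CPM, with AcLDL 113, 118 and 103 CPM and with OxLDL 111, 125 and 101 CPM. Its values in Slc7a7-/- cells were in control medium 114, 126 and 125 CPM, with AcLDL 129, 119 and 114 CPM and with OxLDL 120.4, 124 and 116 CPM. Slc38a1 varied little, with a ratio of 1.48 between the highest and the lowest library, and mouse 3 of the Slc7a7+/+ group was low in each medium.

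Slc38a2, a carrier known to be induced when amino acids are scarce, gave in Slc7a7+/+ cells in control medium 194, 198 and 166 CPM, with AcLDL 203, 199.5 and 227 CPM and with OxLDL 175, 235 and 205 CPM. The Slc7a7-/- mice gave in control medium 197, 216 and 207 CPM, with AcLDL 209.6, 262 and 253 CPM and with OxLDL 184, 258 and 223 CPM. The 3 Slc7a7+/+ libraries with AcLDL lay above the 3 in control medium, and in Slc7a7-/- cells the same groups overlapped. Within each of the 6 mice, Slc38a2 was higher with AcLDL than in control medium, by 0.0090 to 0.45 on the log2 scale, and with OxLDL it was higher in 4 of 6 mice. Neither difference passed the test, and with mouse as a block the adjusted p for AcLDL was 0.115 (edgeR).

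The leucine transporter Slc7a5 gave in Slc7a7+/+ cells of mouse 1, 2 and 3 in control medium 16.7, 9.07 and 5.83 CPM, with AcLDL 5.69, 9.60 and 3.40 CPM and with OxLDL 7.17, 5.55 and 3.26 CPM. Its levels in Slc7a7-/- cells were in control medium 12.7, 15.5 and 8.38 CPM, with AcLDL 3.94, 10.6 and 7.54 CPM and with OxLDL 4.21, 6.16 and 5.78 CPM. The OxLDL libraries were low in both genotypes, and in Slc7a7-/- cells all 3 lay below all 3 of control medium, while the Slc7a7+/+ groups overlapped through mouse 3, which was low in every medium. Means were 10.5 ± 5.59 CPM (SD, n = 3) in control medium, 6.23 ± 3.14 CPM with AcLDL and 5.33 ± 1.96 CPM with OxLDL in Slc7a7+/+ cells. They were 12.2 ± 3.57 CPM, 7.34 ± 3.31 CPM and 5.38 ± 1.03 CPM in Slc7a7-/- cells. These values rest on 5 to 25 counts a library, so Slc7a5 was measured with the least precision of the 9 genes, and its ratio between the highest and the lowest library, 5.13, was the largest of the 9. Counting error alone is wide at this depth, since 3 counts correspond to between 1.67 and 2.85 CPM.

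Slc7a8 gave in Slc7a7+/+ cells in control medium 298, 179 and 305 CPM, with AcLDL 277, 206 and 252 CPM and with OxLDL 215, 210.5 and 241 CPM. The Slc7a7-/- cells gave in control medium 282, 263 and 249 CPM, with AcLDL 298, 243 and 223 CPM and with OxLDL 202, 232 and 219.7 CPM. With OxLDL the 6 libraries lay within a narrow range, below all 3 control libraries of Slc7a7-/- cells and below mouse 1 and 3 but not mouse 2 of the Slc7a7+/+ controls. Slc3a2, the heavy chain that Slc7a5, Slc7a8 and Slc7a7 need to reach the membrane, was at 235 ± 26.3 CPM (SD, n = 3) in control medium, 197 ± 4.29 CPM with AcLDL and 222 ± 11.6 CPM with OxLDL in Slc7a7+/+ cells. In Slc7a7-/- cells it was at 213 ± 15.6 CPM, 196 ± 22.1 CPM and 204 ± 21.9 CPM. Slc3a2 passed the test in none of the 14 comparisons (edgeR), and between the genotypes its log2 fold change over sums per mouse had a 95% interval from -0.34 to 0.15. Averaged over the genotypes, the interval was from -0.37 to -0.0099 with AcLDL (edgeR, adjusted p = 0.385). With OxLDL it was from -0.26 to 0.10 (edgeR, adjusted p = 0.735).

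Glul, the glutamine synthetase gene, gave in Slc7a7+/+ cells in control medium 186, 189 and 238 CPM, with AcLDL 164, 126 and 190.4 CPM and with OxLDL 145, 152 and 214 CPM. In knockout (Slc7a7-/-) cells it gave in control medium 189, 157 and 159.9 CPM, with AcLDL 175, 149 and 137 CPM and with OxLDL 138, 138 and 151 CPM. In every mouse both LDL libraries lay below the control library, and in Slc7a7-/- cells the OxLDL group did not overlap the control group. Means were 204 ± 29.5 CPM (SD, n = 3) in control medium, 160.1 ± 32.6 CPM with AcLDL and 170.5 ± 38.3 CPM with OxLDL in Slc7a7+/+ cells. They were 169 ± 17.8 CPM, 154 ± 19.2 CPM and 142 ± 7.56 CPM in Slc7a7-/- cells. Mouse 3 was highest of the Slc7a7+/+ mice in each medium.

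Glud1, which opens the route from glutamate to the citric acid cycle, gave in Slc7a7+/+ cells in control medium 532, 486 and 504 CPM, with AcLDL 499, 460.3 and 528 CPM and with OxLDL 513, 397 and 509 CPM. Its values in Slc7a7-/- cells were in control medium 516, 421 and 516 CPM, with AcLDL 537, 442 and 435 CPM and with OxLDL 414, 433 and 421 CPM. It was the steadiest of the 9 genes, with a ratio of 1.35 between the highest and the lowest library. The 3 Slc7a7-/- libraries with OxLDL lay just below the 3 with AcLDL and overlapped the control group through mouse 2.

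Got1, the cytosolic aminotransferase gene, gave in Slc7a7+/+ cells in control medium 35.3, 30.01 and 27.7 CPM, with AcLDL 31.3, 19.9 and 25.2 CPM and with OxLDL 30.5, 35.2 and 18.9 CPM. The Slc7a7-/- mice gave in control medium 29.5, 22.3 and 23.9 CPM, with AcLDL 29.2, 21.1 and 23.2 CPM and with OxLDL 33.7, 26 and 20.2 CPM. The groups compared overlapped for Got1, although it was lower with AcLDL than in control medium in each of the 6 mice, by 0.018 to 0.56 on the log2 scale. Got2, the mitochondrial form, gave in Slc7a7+/+ cells in control medium 115, 82.4 and 86.01 CPM, with AcLDL 89.2, 59.1 and 82.3 CPM and with OxLDL 93.2, 96.9 and 72.4 CPM. Its levels in Slc7a7-/- cells were in control medium 84.4, 90.4 and 83.2 CPM, with AcLDL 85.1, 82.7 and 82.3 CPM and with OxLDL 90.9, 79.4 and 83.8 CPM. The 9 Slc7a7-/- libraries of Got2 lay between 79.4 and 90.9 CPM, within the spread of the Slc7a7+/+ libraries, which ran from 59.1 to 115 CPM.

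**Figure D2:**
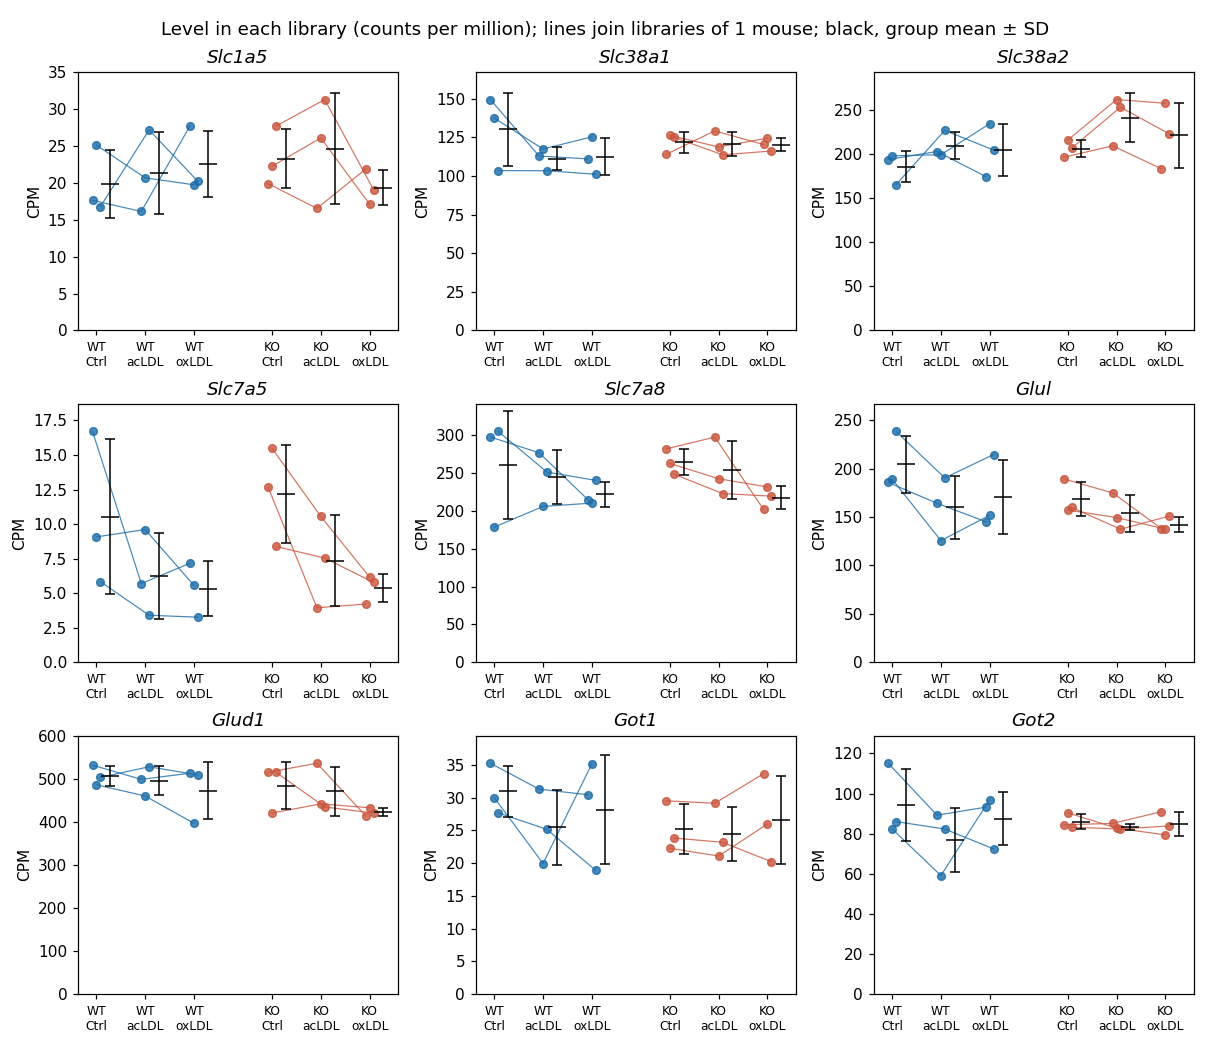
Level of each gene in each of the 18 libraries (y axis, CPM, from 0), with Slc7a7+/+ mice (WT) in blue, Slc7a7-/- mice (KO) in red, lines joining the 3 media of a mouse and black bars for the group mean ± SD (n = 3). Slc7a5 reaches 16.7 CPM in control medium and at most 7.17 CPM with OxLDL, while Glud1 stays between 397 and 537 CPM.

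For AcLDL against control medium, averaged over the genotypes, 0 of 9 genes passed the test by edgeR's quasi-likelihood test and 0 by DESeq2, where 2% of the 12290 genes tested passed by edgeR. The median log2 fold change of the 9 was -0.12, beside -0.0064 over all genes. At an unadjusted p under the threshold of 0.05 stood 2 of the 9, Slc7a5 and Glul, beside 11.8% of all genes tested. The log2 fold change of Slc7a5 was -0.70 ± 0.31 (SE; edgeR, adjusted p = 0.358), with the control mean at 11.4 CPM and the AcLDL mean at 6.79 CPM. That of Glul was -0.25 ± 0.12 (SE; edgeR, adjusted p = 0.402), from 187 to 157 CPM. With mouse as a block, Glul fell by 0.25 on the log2 scale (SE 0.075; edgeR, adjusted p = 0.0394), a fold of 0.840 with a 95% interval from 0.756 to 0.934. This was 1 of 9 genes called lower, where 3.5% of all genes tested were called lower in that fit. The call held in 1 of the 6 fits that left out a mouse, that without mouse 1 of Slc7a7+/+ (adjusted p = 0.0188), and the highest adjusted p of the others was 0.235.

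For OxLDL against control medium, averaged over the genotypes, 0 of 9 genes passed by edgeR and 0 by DESeq2, where 5.39% of all genes tested passed by edgeR. The median log2 fold change of the 9 was -0.11, beside 0.010 over all genes, and 8 of 9 fold changes were negative. The largest was that of Slc7a5, whose level was 0.480 times that of control medium (95% interval 0.303 to 0.761), a log2 fold change of -1.06 ± 0.32 (SE; edgeR, adjusted p = 0.0559). It was 1 of 3 genes of the 9 at an unadjusted p under 0.05, beside 16.6% of all genes tested. Slc7a8 had a log2 fold change of -0.25 ± 0.12 (SE; edgeR, adjusted p = 0.266), and Glul one of -0.25 ± 0.12 (SE; edgeR, adjusted p = 0.261). With no filter on low counts, Slc7a5 passed (edgeR, adjusted p = 0.0194). All 3 passed with mouse as a block. Slc7a5 then fell by 1.05 on the log2 scale (SE 0.29; edgeR, adjusted p = 0.0118), Glul by 0.25 (SE 0.075; edgeR, adjusted p = 0.0239) and Slc7a8 by 0.23 (SE 0.079; edgeR, adjusted p = 0.0496). These were 3 of 9 genes called lower, beside 6.95% of all genes tested, and none of the 9 was called higher. In the 6 fits with the block that left out a mouse, the call of Slc7a5 held in 3, that of Glul in 2 and that of Slc7a8 in 1, with adjusted p of at most 0.0699, 0.164 and 0.226. Of the 8 macrophage markers, 3 also passed with OxLDL in the fit without the block. The sum of all 8 lay between 24800 and 35500 CPM in control medium and between 21100 and 30200 CPM with OxLDL in Slc7a7+/+ cells. It lay between 18000 and 21300 CPM and between 12600 and 14600 CPM in Slc7a7-/- cells. Most of this sum was Lyz2, which did not pass (log2 fold change -0.38; edgeR, adjusted p = 0.129). Without Lyz2 the sum lay between 4300 and 7020 CPM in control medium and between 3410 and 5580 CPM with OxLDL in Slc7a7+/+ cells. In Slc7a7-/- cells it then lay between 5950 and 7140 CPM and between 4110 and 5040 CPM. Adgre1 had a log2 fold change of -0.57 (edgeR, adjusted p = 0.0329), Cd14 one of -1.10 (edgeR, adjusted p = 0.00389) and Mertk one of 0.56 (edgeR, adjusted p = 0.0461), and their part in the results above was not tested. Nor was that of the neutrophil markers, which summed to 72.9 to 126 CPM in control medium and 142 to 252 CPM with OxLDL in Slc7a7+/+ cells, and to 52.0 to 141 CPM and 62.9 to 114 CPM in Slc7a7-/- cells. Both LDL comparisons share the control libraries. In bulk RNA, fewer cells of a type and less RNA per cell cannot be told apart.

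**Figure D3:**
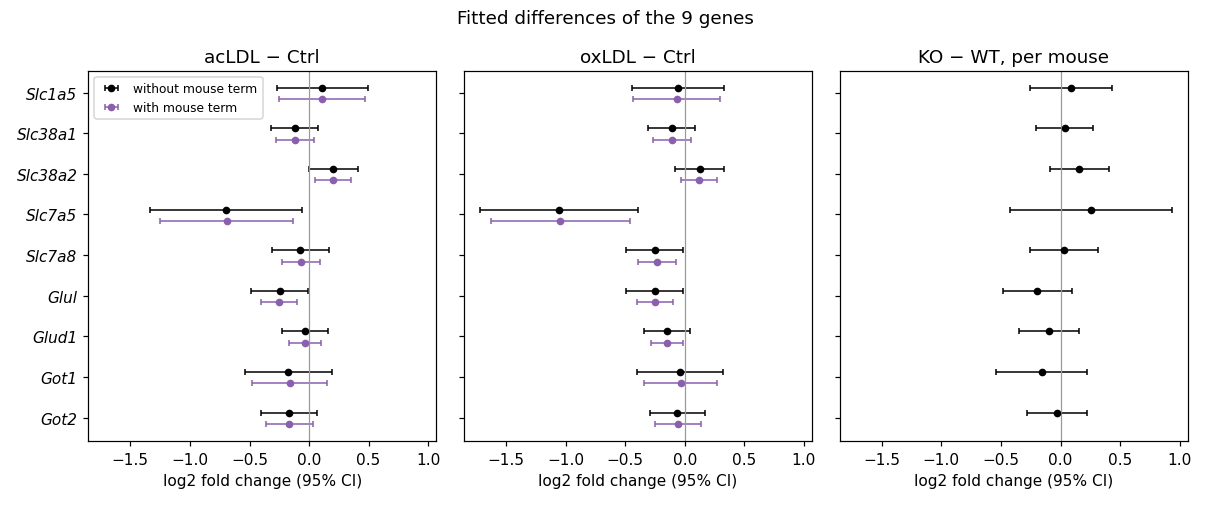
Fitted log2 fold change of each gene with its 95% interval (x axis), for AcLDL against control, OxLDL against control and Slc7a7-/- against Slc7a7+/+ over sums per mouse, in black without and in purple with mouse as a block (6 mice). Slc7a5 stands farthest left with OxLDL, at -1.06 without and -1.05 with the block, while all 9 intervals for genotype span 0.

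Each genotype was also tested alone. In Slc7a7+/+ cells, 0 of 9 genes passed with AcLDL (0.472% of all genes tested passed) and 0 of 9 with OxLDL (1.34%), by edgeR as by DESeq2. At an unadjusted p under 0.05 stood 1 of the 9 with AcLDL, beside 7.33% of all genes tested, and 0 with OxLDL, beside 10%. The former was Glul, with a log2 fold change of -0.35 ± 0.16 (SE; edgeR, adjusted p = 0.647). In Slc7a7-/- cells, 0 of 9 passed with AcLDL (0.521% of all genes) and 0 of 9 with OxLDL (2.32%), again by both tools, with 0 and 1 of the 9 at an unadjusted p under 0.05, beside 7.53% and 12.3% of all genes tested. Slc7a5 with OxLDL was the latter, with a log2 fold change of -1.15 ± 0.44 (SE; edgeR, adjusted p = 0.231). Without single libraries, the calls over all genes ranged from 40 to 118 (58 with all) with AcLDL and from 91 to 244 (165) with OxLDL in Slc7a7+/+ cells, and from 31 to 50 (64) and from 149 to 191 (285) in Slc7a7-/- cells. The highest counts in Slc7a7+/+ cells were those without mouse 1 in control medium, and the lowest with OxLDL was that without mouse 2 in control medium. In Slc7a7-/- cells the lowest were those without the AcLDL or OxLDL library of mouse 3. Groups that did not overlap were seen for Slc7a5, Slc7a8 and Glul between OxLDL and control in Slc7a7-/- cells, 3 of 9 genes beside 21.6% of all genes tested. Others were Slc38a2 between AcLDL and control in Slc7a7+/+ cells, 1 of 9 beside 11%, and Glud1 between OxLDL and AcLDL in Slc7a7-/- cells, 1 of 9 beside 13.4%.

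The 6 mice give the same comparison one by one. Slc7a5 was lower with OxLDL than in control medium in 6 of 6 mice, by 0.45 to 1.33 on the log2 scale, and lower with AcLDL in 5 of 6, with mouse 2 of Slc7a7+/+ as the exception. Glul was lower in 6 of 6 mice with each LDL, by 0.073 to 0.59 with AcLDL and by 0.083 to 0.45 with OxLDL. Slc7a8 was lower with OxLDL in 5 of 6 mice, with mouse 2 of Slc7a7+/+ higher by 0.23. Slc1a5 was lower in 3 of 6 mice and higher in 3 with either LDL. Got1 and Got2 with OxLDL, and Glud1 with AcLDL, were also split 3 to 3.

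**Figure D4:**
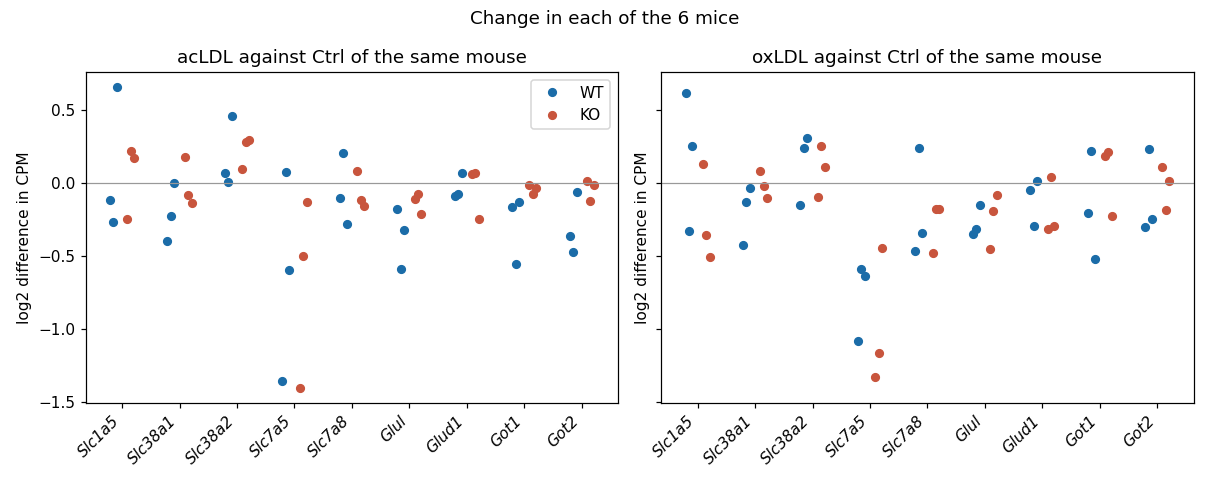
Difference in log2 CPM between each LDL and the control medium of the same mouse (y axis), with 1 point for each of 3 Slc7a7+/+ (WT, blue) and 3 Slc7a7-/- mice (KO, red) per gene. All 6 points of Glul lie below 0 with both LDLs and all 6 of Slc7a5 with OxLDL, from -1.33 to -0.45.

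OxLDL against AcLDL, at their different doses, gave 0 of 9 genes in Slc7a7+/+ cells (0.00814% of all genes tested passed) and 0 of 9 in Slc7a7-/- cells (0.0651%), by edgeR as by DESeq2. No gene of the 9 stood at an unadjusted p under 0.05 in either. The 95% intervals of the 9 log2 fold changes lay between -1.30 and 0.80 in Slc7a7+/+ cells and between -1.43 and 0.63 in Slc7a7-/- cells, with Slc7a5 the widest.

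Between the genotypes, counts of the 3 libraries of a mouse were summed, which left 3 mice against 3. By edgeR 0 of 9 genes passed, by DESeq2 0 of 9, and 0 of 9 stood at an unadjusted p under 0.05, where 0.00789% of all genes, 1 of 12673, passed. That gene was Slc7a7 itself, with a log2 fold change of -1.80 (SE 0.19; edgeR, adjusted p = 0.0112). Glul averaged over the media 165, 156 and 214 CPM in the 3 Slc7a7+/+ mice and 167, 148 and 149 CPM in the 3 Slc7a7-/- mice, with a 95% interval of the log2 fold change from -0.48 to 0.095. Slc38a2 averaged 191, 211 and 199 CPM against 197, 245 and 228 CPM, with an interval from -0.090 to 0.40. Slc7a5 averaged 9.86, 8.08 and 4.16 CPM against 6.94, 10.7 and 7.23 CPM, with an interval from -0.42 to 0.93. For the other 6 genes, and for these, the intervals lay between -0.54 and 0.93. Lyz2, the gene that carries Cre in Slc7a7-/- mice, had a log2 fold change of -1.08 (SE 0.21), with a 95% interval from -1.54 to -0.61. Its unadjusted p was 3e-04 and its adjusted p 0.98 (edgeR), so it did not pass across all genes. The 7 other macrophage markers summed to 3410 to 7020 CPM in Slc7a7+/+ libraries and to 4110 to 7140 CPM in Slc7a7-/- libraries.

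Within single media, 0 of 9 genes differed between the genotypes in control medium (0.00814% of all genes tested passed), with AcLDL (0.0163%) or with OxLDL (0.00814%), by edgeR, DESeq2 and limma, and 0 of 9 stood at an unadjusted p under 0.05 in each. By edgeR the deleted gene Slc7a7 itself passed with AcLDL only. It was not called in control medium (means 14.95 CPM in Slc7a7+/+ and 6.58 CPM in Slc7a7-/- cells) or with OxLDL (28.0 and 9.91 CPM). These tests within a medium could therefore miss differences of that size in genes with few counts. The response to LDL was also compared between the genotypes through the interaction. For AcLDL 0 of 9 genes passed, beside 0% of all genes, and for OxLDL 0 of 9, beside 0%, by edgeR and DESeq2, with none of the 9 at an unadjusted p under 0.05. The interval for Slc7a5 ran from -1.20 to 1.27 with AcLDL and from -1.54 to 1.17 with OxLDL on the log2 scale, and that for Glul from -0.26 to 0.69 and from -0.46 to 0.49. Both intervals of Slc7a5 thus include responses that differ by 2-fold between the genotypes, in either direction.

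Other genes of the pathway were taken from 5 lists. Of 21 other neutral amino acid transporters, 13 could be tested. With OxLDL, averaged over the genotypes, 1 was lower and none higher, with a list median of 0.0055 beside 0.010 for all genes, and with AcLDL none passed, with a median of -0.15 beside -0.0064. The one that fell was Slc16a10, a transporter of aromatic amino acids, with a log2 fold change of -0.67 ± 0.14 (SE; edgeR, adjusted p = 0.00357). It was at 257 ± 81.1 CPM (SD, n = 3) in control medium and 164 ± 45.2 CPM with OxLDL in Slc7a7+/+ cells, and at 316 ± 44.5 CPM and 195 ± 15.9 CPM in Slc7a7-/- cells. With mouse as a block it also fell with AcLDL, by 0.47 (edgeR, adjusted p = 1.24e-05). Slc7a7 rose with OxLDL in that fit, by 0.74 (edgeR, adjusted p = 0.0288), whereas it did not pass without the block (edgeR, adjusted p = 0.069). Between the genotypes Slc7a7 was the only one of the 13 that passed, over sums per mouse and with AcLDL, where its log2 fold change was -2.89 (edgeR, adjusted p = 0.000472).

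Of 23 glutamate carriers, glutaminases and other glutamate enzymes, 16 could be tested, and none passed in any of the 14 comparisons (edgeR), nor with the block in the comparisons of LDL. Their median log2 fold change was 0.080 with AcLDL and -0.029 with OxLDL. Of 13 enzymes that use the amide nitrogen of glutamine, 12 could be tested, and none passed in these fits either, with medians of -0.037 and -0.099. Of 17 genes of leucine use and sensing all 17 were tested and none passed without the block, with medians of -0.018 and -0.082. With mouse as a block, 3 of these 17 were lower with OxLDL averaged over the genotypes, namely Bcat2, Lars2 and Sesn1, and Sesn3 was higher. Bcat2, the mitochondrial aminotransferase of branched-chain amino acids, had a log2 fold change of -0.47 (edgeR, adjusted p = 0.028), and Lars2, the mitochondrial leucyl-tRNA synthetase, one of -0.25 (edgeR, adjusted p = 0.0423). Of the sestrins, whose proteins take part in leucine sensing, Sesn1 had one of -0.30 (edgeR, adjusted p = 0.0174) and Sesn3 one of 0.76 (edgeR, adjusted p = 0.0264). Bckdha, a subunit of the branched-chain keto acid dehydrogenase, fell in Slc7a7+/+ cells with OxLDL by 0.79 with the block (edgeR, adjusted p = 0.0181).

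Of 20 targets of ATF4, 4 of which also stand in the other lists, 19 could be tested. With AcLDL 1 was lower and none higher, with a median of -0.12 beside -0.0064 for all genes, and with OxLDL none passed, with a median of -0.0088. The one that fell with AcLDL was Slc7a11, the cystine-glutamate exchanger, which also joins Slc3a2, with a log2 fold change of -1.76 ± 0.42 (SE; edgeR, adjusted p = 0.025). It was at 13.3 ± 6.66 CPM (SD, n = 3) in control medium, 5.52 ± 3.72 CPM with AcLDL and 19.4 ± 11.1 CPM with OxLDL in Slc7a7+/+ cells. In Slc7a7-/- cells it was at 21.5 ± 12.5 CPM, 4.62 ± 1.24 CPM and 15.6 ± 10.02 CPM. The lowest library held 2 counts of it. With mouse as a block, Slc7a11 was higher with OxLDL than with AcLDL in Slc7a7+/+ cells (log2 fold change 1.79; edgeR, adjusted p = 0.0251) and in Slc7a7-/- cells (1.59; edgeR, adjusted p = 0.0442), which did not pass without the block (adjusted p = 0.752 and 0.708). Between the genotypes over sums per mouse, the medians were -0.0082 for the other transporters, 0.0066 for the glutamate enzymes, 0.15 for the users of amide nitrogen, -0.12 for leucine use and 0.090 for ATF4 targets, beside -0.00059 for all genes, and of all these genes Slc7a7 alone passed.

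Finally, the genes whose log2 CPM ran most alike over the 18 libraries were listed for each of the 9, among 6754 genes with a mean of at least 20 CPM. For Slc7a5 these were Tpm1 (Pearson's r = 0.822), Acsl5 (0.809) and Tnf (0.798), and for Slc7a8 Zmat2 (0.776), Ctsl (0.737) and Ski (0.718). For Slc1a5 they were Bsdc1 (0.767), Lpxn (0.761) and Angel2 (0.754), for Slc38a1 Taz (0.817), Rcc2 (0.785) and Ptpn7 (0.772), and for Slc38a2 Itga6 (0.890), Cep192 (0.824) and Cttnbp2nl (0.806). Among the enzymes, Glul ran most alike to Gpr141 (0.856), Idh1 (0.852) and Slc31a1 (0.817), and Glud1 to Cd302 (0.843), Cox7a2l (0.826) and Npc2 (0.809). Got1 ran most alike to Ndufb5 (0.799), then to Got2 (0.718) and Mtfr1 (0.702), and Got2 to BC004004 (0.80), Atp5g1 (0.790) and Mical1 (0.743). Slc7a5, with a mean of 7.83 CPM, was below the limit of 20 CPM and could not be listed for another gene. Got2 was the only one of the 9 to appear among the genes most like another of them. Next among pairs of the 9 genes came Glul with Glud1 (0.621), and the lowest was Slc1a5 with Slc7a8 (-0.477). These are descriptions over 18 libraries that share mice, media and depth.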

How the data were processed

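RNA-Seq of bone marrow-derived macrophages from 6 mice, 18 libraries in all, was analysed. The authors made stranded single-end libraries, trimmed the reads, ran STAR against mm10 and obtained estimated counts per Ensembl gene with Salmon through nf-core. These estimated counts are what was deposited, without normalization, and versions of STAR and Salmon are not given in the sources used here. The authors counted with an Ensembl transcriptome whose release they name. Its gene models may differ from those of GENCODE M21, used here for positions, lengths, shared words and overlaps. Groups came from the labels, doses and times from the methods.

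The values were rounded to whole counts and filtered with filterByExpr (minimum count 2, minimum total count 10), leaving 12290 genes. Differences were tested in R 4.3.3 with the quasi-likelihood test of edgeR 4.0.16, fitted to all 6 groups after TMM scaling. P-values were adjusted by Benjamini and Hochberg's method across every gene tested, and 0.05 was the threshold. For genotype, counts were also summed per mouse. Log2 CPM used a prior count of 2. The alternatives were other scalings, filters and sets of libraries, DESeq2 1.42.0, mouse as a block, which for genotypes within a medium used limma 3.58.1 (voom, duplicateCorrelation), and leaving out each library or mouse. The code was tested on simulated data. Depth, from 1043492 to 1768816 counts a library, limits genes with few counts.

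Libraries of a mouse are tied by an identifier in the labels. Their deviations from the group means correlated over genes at 0.055 to 0.293 (14 of 18 pairs over 0.1), so the fit with the block is given wherever it changes a call. No mouse is shared between the genotypes. Library numbers in the labels run through all Slc7a7+/+ libraries before the Slc7a7-/- ones, so an effect of that order and one of genotype cannot be told apart. No pair of replicates agreed within sampling noise, with a chi-square of 2.03 to 12.7 per degree of freedom.

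The 9 genes and the lists were chosen with earlier results of these data known. The genes named are the 9, Slc7a7, Slc3a2, genes of the 5 lists that passed with or without the block, markers, and the 3 genes most like each of the 9. Fold changes of the 9 are given where the unadjusted p was under 0.05, and intervals otherwise. Some single genes of the lists are not reported here.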

Additional observations from a re-analysis of the deposited data

How the results depend on the processing

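For the 9 genes, 205 counts of calls were recomputed under other scalings, filters, tools, sets of libraries, with a replicate block and without single replicates, and 198 of them were equal to those reported. With a replicate block, 1 gene passed with AcLDL and 3 passed with OxLDL, each averaged over the genotypes, and in all other comparisons the block gave 0 of 9. With no filter on low counts 1 gene, Slc7a5, passed with OxLDL, and the cause was not tested. Without single libraries, between 0 and 1 genes passed with OxLDL. The one was Slc7a8 without replicate 2 of Slc7a7+/+ control cells (adjusted p = 0.0398), and Slc7a5 without replicate 3 of Slc7a7+/+ control (adjusted p = 0.0283), replicate 1 of Slc7a7+/+ OxLDL (adjusted p = 0.0397) or replicate 3 of Slc7a7-/- control cells (adjusted p = 0.0472), all by edgeR. With the block and without all libraries of 1 mouse, an alternative chosen after seeing the data, 1 gene passed with AcLDL without mouse 1 of Slc7a7+/+, and 2 passed with OxLDL without mouse 2 or 3 of Slc7a7+/+ or mouse 3 of Slc7a7-/-, and 0 otherwise. The fold changes given for Slc7a5, Glul and Slc7a8 kept their direction in each of these settings, and those of other genes were not recomputed in all of them. Over all genes, calls with AcLDL numbered 246 and 719 with the block, and with OxLDL 662 and 1393. In single genotypes the block raised them from 58 to 265 and from 165 to 539 in Slc7a7+/+ cells, and from 64 to 307 and from 285 to 882 in Slc7a7-/- cells. For OxLDL against AcLDL the block raised them from 1 to 90 in Slc7a7+/+ and from 8 to 169 in Slc7a7-/- cells. Fitting only the libraries compared lowered the Slc7a7+/+ counts to 32 with AcLDL and 62 with OxLDL and raised the Slc7a7-/- counts to 198 and 751, and to 61 for OxLDL against AcLDL. Between the genotypes it gave 0 in control medium, 4 with AcLDL and 0 with OxLDL, and for the interaction 1 with AcLDL and 0 with OxLDL. With no filter, genotype calls rose from 1 to 73 over sums per mouse, from 1 to 28 in control medium, from 2 to 45 with AcLDL and from 1 to 34 with OxLDL, and calls of the interaction from 0 to 18 for AcLDL and from 0 to 15 for OxLDL. With no filter they also rose to 438 with AcLDL, to 176 and 337 in Slc7a7+/+ and 188 and 491 in Slc7a7-/- cells with AcLDL and OxLDL, and to 73 and 91 for OxLDL against AcLDL. DESeq2 gave 11 and 19 there, 3 and 6 between the genotypes in control medium and with AcLDL, 5 over sums per mouse and 1 for the interaction with AcLDL. The block gave 5 for that interaction and, by limma, 2 between the genotypes in control medium, and edgeR on single libraries in place of sums per mouse gave 7. Without single libraries, the calls with AcLDL over both genotypes ranged from 155 (without replicate 3 of Slc7a7-/- AcLDL) to 403 (without replicate 1 of Slc7a7+/+ control), and those with OxLDL from 514 to 808. The level per kb moved with the length used for all 9 genes. Depth limits Slc7a5 most, with 5 to 25 counts a library.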
